A study of Rattus norvegicus with 22 samples.

Results

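H3K4me3 regions of 1 to 4 kb are stretches of at least 1000 and under 4000 bases that were called as peaks of this length in all 4 H3K4me3 peak lists of the study. They were chosen by their measured lengths: a peak of this length in the list of sham replicate 1 was kept where it shared at least 1 base with a peak of this length in each of the other 3 lists. The rule gave 10898 regions, which are 64.4% of the 16933 peaks of this length in sham replicate 1 and 9.38% of its 116241 peaks. Of the 34356 sham replicate 1 peaks of any length that had an overlapping peak in each other list, they made up 31.7%. Lengths, and pileups measured on the same peaks, are therefore given as descriptions of the members, and their shared presence in the lists is not a finding.

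Trimethylation of lysine 4 of histone H3 is a chromatin mark that sits around the start sites of active and poised genes, where it is laid down by the SET1 and MLL family methyltransferases and bound by factors that assist transcription initiation. At most such promoters the mark covers the few nucleosomes flanking the start site, whereas short weak stretches are often found at enhancers and very broad domains at genes that define a cell's identity. In the hippocampus, a brain region needed for spatial and episodic memory, the mark is carried by neurons, glia and vascular cells together, and bulk chromatin averages over them.

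Chromatin came from the hippocampus of adult male Sprague-Dawley rats, 2 sham and 2 with traumatic brain injury (TBI), collected 1 day after surgery. The study profiled the ipsilateral hippocampus, on the right, the side of the surgery. TBI rats received a moderate lateral fluid percussion through an opening in the skull over the right hemisphere, and sham rats had the same craniectomy and isoflurane anesthesia without the percussion, so the controls also carry the surgery. Each hippocampus was crosslinked by itself and precipitated with a monoclonal H3K4me3 antibody, and DNA of the same animal taken before precipitation served as input. In bulk tissue, a change in the number of cells of a type and a change in the mark per cell cannot be told apart. The lists name no genes and no annotation of their build, rn5, was used here, so members are given by position and the tissue could not be checked against marker genes.

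The lists differed in depth. Tags left after removal of duplicates were 17789038 and 18972037 in the sham replicates 1 and 2, and 16062200 and 7236993 in the TBI replicates 1 and 2. The genome-wide background that MACS2 set against the peaks followed these totals, at 1.90, 2.03, 1.72 and 0.774 tags. TBI replicate 2, the shallowest, had the longest list, 353688 peaks, of which 4.67% fell in the length class, against 14.6% in sham replicate 1. The run names inside all 4 lists contain the word Sham, including those of the 2 samples labelled TBI, and the groups used here follow the sample labels. Because depth was uneven, the pileup of each peak, the mean height of stacked tags over it, was turned into a percentile rank within its list over the 34356 regions, from 0 for the lowest to 100 for the highest.

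Most of the loss by the rule came from peaks that were shorter in another list. Of the 16933 sham replicate 1 peaks of this length, 83.8% met a peak of the class in sham replicate 2, 81.1% in TBI replicate 1 and 75.1% in TBI replicate 2. Only shorter peaks were met by 11.8%, 9.76% and 21.6%, and a peak of 4000 bases or more by 3.74%, 7.68% and 1.10%, in the same order. No peak at all was met by 0.614%, 1.45% and 2.18%. The 6035 peaks that were lost had a median sham replicate 1 pileup of 7.5 tags, against 33.32 tags for the members, and a median length of 1346 bases. Sham replicate 2 alone removed 541 of them, TBI replicate 1 alone 1007 and TBI replicate 2 alone 1424.

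The bounds of the class cut through a continuous range of lengths. At the lower bound, chr10:12727581-12728580 was 1 of 2 members of 1000 bases in sham replicate 1 and measured 1738, 1163 and 1100 bases in sham replicate 2, TBI replicate 1 and TBI replicate 2, with pileups of 19.2, 11.79, 17.81 and 8.07 tags over the 4 lists. Just outside it, the peak at chr1:234127614-234128612 had 999 bases, lengths of 321, 200 and 723 bases in the other lists and pileups of 4.18, 5.65, 3 and 2.21 tags, and was 1 of 12 ranked peaks of that length. At the upper bound, chr10:110211931-110215928 was 1 of 2 members with the greatest length in sham replicate 1, 3998 bases, and had 2258, 2912 and 2570 bases in the other lists. The peak at chr20:6654800-6658799, with 4000 bases in sham replicate 1 and 4254, 4819 and 3857 in the others, lay just outside the upper bound at pileups of 66.04, 52.85, 71.86 and 32.71 tags.

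Although few in number, the members held a large share of the signal under called peaks. They were 9.38%, 4.63%, 6.11% and 3.08% of the peaks of sham replicates 1 and 2 and TBI replicates 1 and 2. They covered 21.7 to 26.9 Mb, or 15.9% to 30.0% of the bases under peaks. Multiplying pileup by length, they held 49.8% and 40.9% of the total of the sham lists and 50.4% and 41.8% of that of the TBI lists. These totals leave out tags outside peaks, and background was not subtracted. The lower length bound of the rule itself favours a large share. Their median pileup stood at the 93.4th to 97.8th percentile of all peaks of its own list.

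Median member length was 2237 and 2088 bases in the sham replicates and 2444 and 1913.5 bases in the TBI replicates. TBI replicate 1 thus had the longest and TBI replicate 2 the shortest members, with both sham replicates between them. The mean of the medians was 2162.5 ± 105 bases in sham and 2178.75 ± 375 bases in TBI (SD, n = 2 each), a difference of 16.25 bases that is far smaller than the spread within either group. Median fold enrichment over background took the same order, at 11.8 and 9.89 in sham and 14.4 and 9.19 in TBI, as did median pileup, at 33.32 and 28.95 tags in sham and 38.16 and 15.3 tags in TBI. Length and enrichment of the members therefore moved together from list to list, and the TBI replicates took both ends of the range. TBI replicate 1 held the longest of the 4 peaks at 51.9% of the members, and TBI replicate 2 the shortest at 53.7%.

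**Figure D1:**
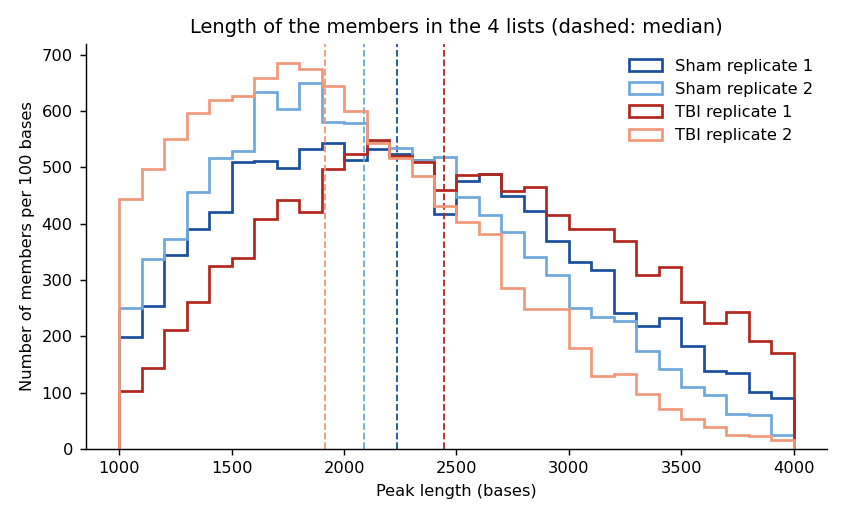
Lengths of the 10898 members in each list, as counts per 100 bases on the vertical axis against peak length in bases, with dashed lines at the medians. The TBI replicates bracket the sham replicates, with medians of 2444 and 1913.5 bases against 2237 and 2088 bases.

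The extra length was added at both edges alike. From sham replicate 1 to TBI replicate 1 the median member reached 55 bases further out on the left and 57.5 bases on the right, and from TBI replicate 1 to TBI replicate 2 its outward reach changed by −170 and −175 bases. From sham replicate 1 to sham replicate 2 the change was −41 and −43 bases. The stretch covered by all 4 peaks had a median of 1701 bases, 66.4% of the stretch covered by any of them, which had a median of 2720 bases. This common core was at least 1000 bases long in 94.7% of the members and was empty in 25, where peaks of different lists each touched the sham replicate 1 peak but had no base in common. The longest of the 4 peaks was a median of 1.39 times the shortest, and at least 2 times in 783 members (7.18%). In TBI replicate 2, 17.6% of the members overlapped 2 or more peaks, against 9.89% in sham replicate 2 and 6.77% in TBI replicate 1.

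The members that kept their length best differed by a few bases. At chr1:56923383-56927075 the peak measured 3693 and 3707 bases in sham and 3694 and 3702 bases in TBI. At chr6:104422089-104425134 it measured 3046, 3061, 3044 and 3050 bases, with ranks of 72.7, 69.1, 69.7 and 69.3. At the other end, chr3:152288243-152289349 had 1107 and 3893 bases in sham and 1018 and 1183 bases in TBI, a ratio of 3.82 that fell to 1.16 without sham replicate 2. The member at chrX:26097365-26101041 had 3677 and 2956 bases in sham and 3998 and 1056 bases in TBI, and its ratio of 3.79 fell to 1.35 without TBI replicate 2. At chr2:206922797-206924427 the lengths were 1631 and 1024 bases in sham and 3345 and 3865 bases in TBI, with no overlap between the groups, while the ranks of 36.4 and 17.5 in sham and 31.0 and 34.1 in TBI overlapped.

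Longer members had higher pileups up to about 2500 bases and little further rise beyond. The 1367 members with a mean length of 1000 to 1499 bases had a median fold enrichment of 6.22 and 5.45 in sham and 7.35 and 4.57 in TBI. The 2962 members of 2000 to 2499 bases had 12.8 and 10.8 in sham and 15.6 and 10.1 in TBI, and the 1146 members of 3000 to 3499 bases had 14.3 and 12.0 in sham and 17.3 and 11.3 in TBI. Over single members the relation was loose, with Spearman correlations of length and pileup from 0.256 to 0.333 within a list, where both values come from the same peak and the same tags. Members of higher rank also had better kept lengths. With the members split by mean rank into 4 groups, the median ratio of longest to shortest length went from 1.51 in the lowest group to 1.33 in the highest, and the median core from 1226 to 2027 bases. Median fold enrichment in the lowest group was 4.61 and 4.07 in sham and 5.12 and 3.41 in TBI. In the highest group it was 17.7 and 15.1 in sham and 22.1 and 14.9 in TBI.

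Some members were weak in the shallow list. A −log10 q of at least 10 was reached by 81.2% and 76.9% of the members in the sham replicates and by 84.0% and 63.8% in the TBI replicates. Values under 1 were given to 152 and 206 members in sham and to 146 and 681 in TBI. With at least 10 asked for in every list, 6944 members were left.

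The member with the highest mean rank was chr19:67047651-67048969. Its pileup was 234.83 and 249.21 tags in sham and 232.82 and 184 tags in TBI, its fold enrichment 81.3 and 82.6 in sham and 86.0 and 104.3 in TBI, and its length 1319 and 1314 bases in sham and 1316 and 1313 bases in TBI. It stood apart from the other high members in having almost the same edges in the 4 lists and a pileup that dropped far less with the depth of TBI replicate 2. The next 4 all fell in that list by more. Pileup was 104.01 and 81.96 tags in sham and 127.15 and 43.62 tags in TBI at chr9:15346936-15349240. It was 85.66, 73.91, 107.17 and 45.05 tags at chr5:10305367-10309119, in the order sham replicates 1 and 2, TBI replicates 1 and 2. The members chr10:58910609-58913316, at 90.62, 68.08, 91.45 and 47.18 tags, and chr6:111778302-111781436, at 90.85, 72.27, 99.76 and 40.36 tags, completed the 5. These 4 members were 2255 to 3753 bases long in every list and had ranks rounding to 99.8 or more in each.

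Members lay on all 20 autosomes and on chromosome X. Per 1-Mb window holding a peak, they were most frequent on chromosomes 10 (7.28) and 12 (6.83) and least frequent on chromosomes X (2.32) and 2 (2.70). Chromosome X differed in a further respect. Its 359 members had a median pileup of 23.77 and 20.88 tags in sham and 26.57 and 10.52 tags in TBI, whereas the 10539 autosomal members had 33.95 and 29.41 tags in sham and 38.74 and 15.59 tags in TBI. The ratio of X to autosomes was 0.70 and 0.71 in sham and 0.686 and 0.675 in TBI, below 1 in all 4 rats, which were all male. Members on X were also shorter, with medians of 2075 and 1942 bases in sham and 2276 and 1799 bases in TBI, against 2244 and 2094 in sham and 2451 and 1919 in TBI on autosomes. At the same time, 28.2% of the sham replicate 1 peaks on X were members, while on the autosomes this share was 7.29% to 12.3%. This share rests on a small total. Sham replicate 1 had 1271 peaks on X over 155 windows, against 15633 over 290 on chromosome 1 and 3035 over 57 on chromosome 20. Members per window were fewest on X, as given above. Regions of the other classes were less often on X: 1.60% of the regions of 4000 bases or more in all lists and 1.98% of those under 1000 bases in all lists lay there, against 3.29% of the members. These shares are descriptions, since no test over regions was made.

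**Figure D2:**
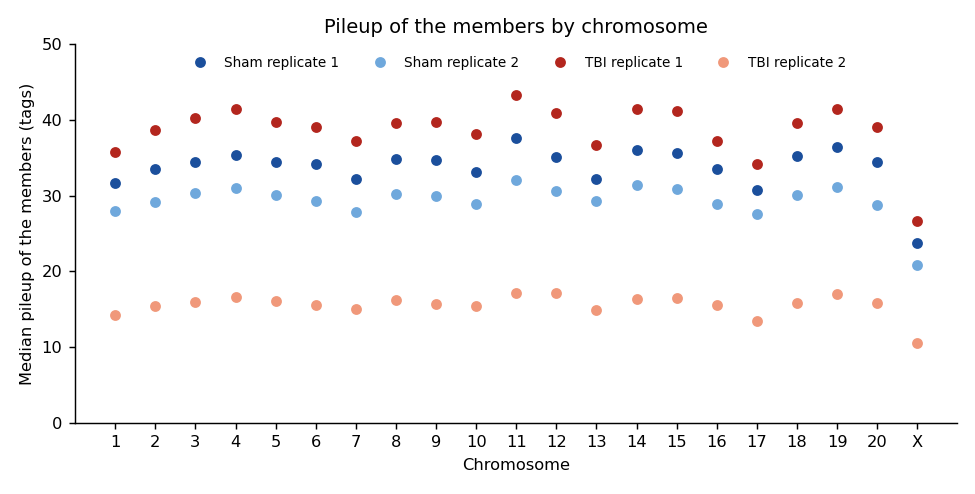
Median pileup of the members in tags (vertical axis, linear from 0) on each chromosome (horizontal axis), with 1 point per list. Chromosome X lies lowest in every list, at 23.77 and 20.88 tags in sham and 26.57 and 10.52 tags in TBI.

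Members were mostly far from each other. The median gap between neighbours was 71702 bases, and 658 gaps (6.05%) were of 5000 bases or less. Joining members across such gaps gave 578 runs that held 1236 members (11.3%). The largest run, chosen after its position was seen, held 6 members at chr4:179442057-179474792, with mean ranks from 58.2 to 81.3 and rank differences between TBI and sham from −2.85 to 2.62 points. The next, at chr10:61724078-61745574, held 5, with mean ranks from 39.5 to 88.3 and differences from −4.86 to 7.93 points. Another sham replicate 1 peak lay within 1000 bases of 38.7% of the members, against 32.8% of all its peaks.

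Against the other length classes, the members resembled the broad regions in strength. The 1062 regions of 4000 bases or more in all lists had a median mean rank of 79.9, the members 77.7 and the 8217 regions under 1000 bases in all lists 23.2. The other 14179 regions, whose lists did not fall in 1 class, had 36.4. The rank of a member spanned a median of 6.78 points over the 4 lists, that of a broad region 5.81 points and that of a short region 22.2 points.

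Whether TBI and sham differed at the members was asked first by comparing lists in pairs. Pileups of the members had a Spearman correlation of 0.950 between the sham replicates, 0.940 between the TBI replicates and 0.937 to 0.946 between a sham and a TBI list. The median absolute rank difference was 3.05 points between the sham replicates and 3.37 points between the TBI replicates. Between a sham and a TBI list it was 3.15 to 3.42 points. Pairs across the groups were thus about as far apart as pairs within them. Over all 34356 regions the median absolute difference was 5.37 to 6.16 points, so the members ranked more alike than regions did at large. The rule had kept them for a peak of the class in every list, so this is a description and not a trait found in them. Lengths were less alike than pileups, at Spearman correlations of 0.777 within sham, 0.722 within TBI and 0.701 to 0.757 across.

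**Figure D3:**
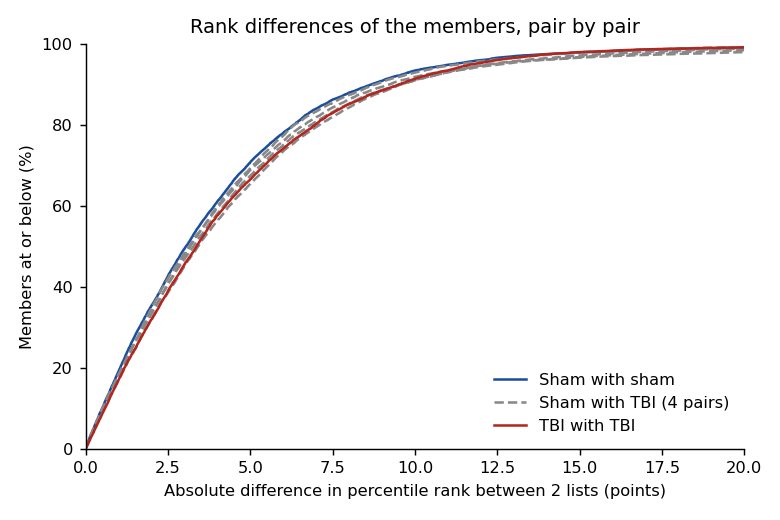
Cumulative percentage of members (vertical axis) against the absolute difference in percentile rank between 2 lists in points (horizontal axis, cut at 20), for the sham pair, the TBI pair and the 4 pairs across. The curves nearly coincide, with medians of 3.05 points within sham, 3.37 within TBI and 3.15 to 3.42 across.

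No member differed between TBI and sham at an adjusted p-value under 0.05, by limma on percentile ranks with Benjamini-Hochberg adjustment over all 34356 regions. The counts were 0 higher and 0 lower of 10898 members, beside 0.064% (22 regions) higher and 0.0% lower over all regions, and the lowest adjusted p-value of a member in this limma fit was 0.0728. At an unadjusted p-value under 0.05, 259 members (2.38%) were higher in TBI, against 3.16% of all regions, and 296 (2.72%) were lower, against 3.5%. Both shares lay below those of all regions. With 2 samples against 2, an exact permutation test of a single region cannot go below 0.333.

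The rank difference of the members, TBI minus sham, had a median of −0.17 points, with 5% and 95% limits over members of −7.26 and 6.39 points. Over all regions the median was −0.31 points, with limits of −18.1 and 18.8 points. The difference stayed within 5 points in 8794 members (80.7%) and passed 20 points in 76. Both TBI ranks lay above both sham ranks in 1728 members (15.9%, against 17.0% of all regions), and below them in 2077 (19.1%, against 19.8%). This split turned with the scale and the regions used. With merged regions 2144 of 10921 members were higher and 1691 lower, against 6669 and 6091 of all 34589 regions. With a −log10 q of at least 10 in every list, 1308 of 6944 members were higher and 1006 lower, against 1781 and 1642 of 9981 regions. The larger count thus changed side over all regions as well. On log2 pileups from which the median of each list had been subtracted, 3358 members (30.8%, against 18.7% of all regions) were higher and 856 (7.85%, against 16.8%) were lower, and the median log2 difference was 0.12. No direction over the members as a whole can therefore be stated.

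Length gave no common direction either. Both TBI peaks were longer than both sham peaks in 1531 members (14.0%, against 14.7% of all regions) and shorter in 1330 (12.2%, against 16.1%). Higher rank and greater length did not go together in these counts: of the 1728 members with higher TBI ranks, 123 (7.12%) had longer TBI peaks and 486 had shorter ones. Of the 2077 with lower TBI ranks, 511 had longer peaks and 182 (8.76%) had shorter ones. These joint counts were made over the members only, and whether other regions share the pattern was not tested. Pileup is a mean over the peak, and the part of peak length in these rank counts was not tested.

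**Figure D4:**
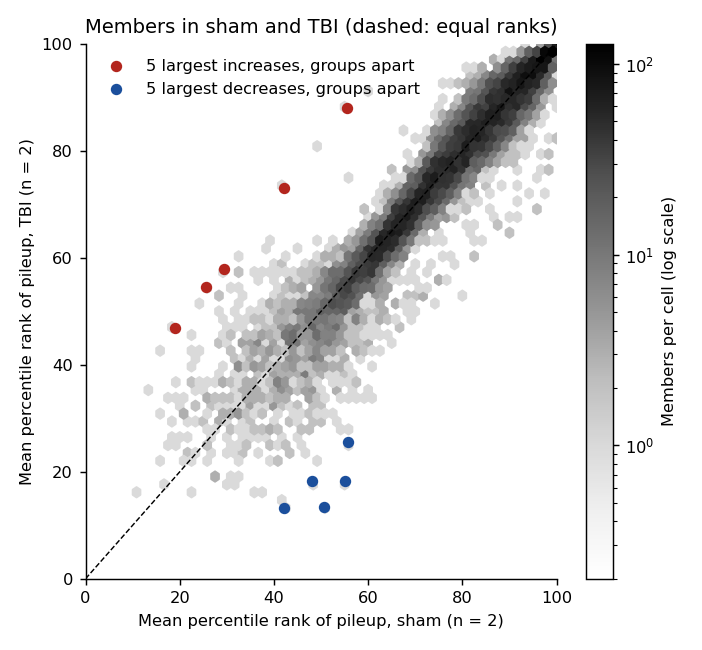
Mean percentile rank of pileup of each member in TBI (vertical axis) against sham (horizontal axis), n = 2 each, with the number of members shown by grey shade on a log scale. The 5 largest increases (red) and decreases (blue) among members whose groups do not overlap lie off the dashed line of equal ranks, and 8794 members lie within 5 points of it.

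Among members whose groups did not overlap, the 5 largest increases and the 5 largest decreases are given in full, although the adjusted p-values of all 10 lay between 0.104 and 0.743 by limma. The clearest was chr7:121144496-121145577. Its ranks were 43.2 and 41.1 in sham and 73.4 and 72.9 in TBI, from pileups of 7.51 and 7.55 tags in sham and 33.55 and 12.92 tags in TBI. Its peak had 1082 and 1087 bases in sham and 3878 and 3216 bases in TBI, and the 4 peaks shared 631 bases. A short weak peak in both sham rats was thus set against a long TBI peak of middle rank that lay mostly outside it. Whether sham had other peaks under the rest of the TBI peaks was not tested. The rank difference was 31.0 ± 3.71 points (SE, n = 2 each), with an adjusted p of 0.104 by limma. On log2 pileups of the same peaks it passed the threshold, at a log2 difference of 1.94 and adjusted p = 0.0171 by limma after quantile normalization and 1.97 and 0.000714 after subtraction of medians. On simulated data with 200 regions changed by 1 log2 unit, the fit to quantile-normalized log2 values recovered 200 and made 8 false calls. The fit to ranks recovered 60 and made 0. At 2 log2 units they recovered 200 with 55 false calls and 192 with 0. The simulated spread was a smooth curve through the log spread of the sham pair, used in every list. With 2 values per region such a curve lies below the true spread, so these recoveries are likely too high. Variation in spread between regions of equal mean, and the spread of the TBI replicates, were not simulated. The fit with medians subtracted was not simulated either.

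The largest increase in mean rank, at chr19:63315707-63316754, rested on sham replicate 1. Its ranks were 31.3 and 79.5 in sham and 88.3 and 87.9 in TBI, a difference of 32.7 ± 14.1 points (SE), and the 4 peaks shared 100 bases, where the sham replicate 1 peak of 1048 bases met the edge of peaks of 2774, 2971 and 2596 bases. Sham replicate 2 lay close to the TBI rats. The difference was 8.57 points without sham replicate 1, with an adjusted p of 0.838 by limma, and 56.8 points without sham replicate 2, with an adjusted p of 0.00349. At chr5:155791056-155792544 the ranks were 19.9 and 31.1 in sham and 53.3 and 56.0 in TBI, with lengths of 1489 and 1829 bases against 2694 and 2583. At chr20:8271759-8272867 the ranks were 33.2 and 25.7 in sham and 58.0 and 57.7 in TBI, while the lengths, 1109 and 1579 bases in sham and 1317 and 1232 bases in TBI, overlapped. At chr13:66054723-66055920 the ranks were 24.4 and 13.4 in sham and 53.0 and 40.6 in TBI, with lengths of 1198 and 1436 bases against 2866 and 2093. Sham pileups of these last 3 were 5.07 to 6.36 tags. Both TBI peaks were longer than both sham peaks at the increases on chromosomes 7, 5 and 13, and not at those on chromosomes 19 and 20.

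The decreases all ended at low pileups in TBI. The largest, chr1:180282327-180283639, had ranks of 47.8 and 53.4 in sham and 13.8 and 13.1 in TBI, from pileups of 8.57 and 10.75 tags in sham and 4 and 2.27 tags in TBI. The difference was −37.1 ± 9.09 points (SE), with an adjusted p of 0.653 by limma. At chr1:154089913-154090928 the ranks were 50.6 and 59.7 in sham and 22.4 and 14.2 in TBI, while the lengths stayed at 1016 and 1097 bases in sham and 1087 and 1103 bases in TBI. At chr13:105786884-105789838 the ranks were 59.5 and 52.1 in sham and 38.3 and 12.8 in TBI, and the peak was 2955 and 3900 bases long in sham and 1787 and 1153 bases in TBI. This was the member of the 5 whose lengths separated furthest. At chr1:55643468-55645854 the ranks were 40.5 and 55.5 in sham and 25.6 and 10.8 in TBI. This member lies in a stretch of chromosome 1, described below, whose members were all lower in TBI. At chr17:46472075-46473348 the ranks were 41.2 and 43.1 in sham and 19.7 and 6.84 in TBI. In all 5 the lowest rank of the 4 lists was that of TBI replicate 2, the shallow library. Without it the differences were −36.8, −32.7, −17.5, −22.4 and −22.5 points in the order above, so the largest hardly moved and that at chr13:105786884-105789838 shrank from −30.2 points by more than 1.5 times.

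**Figure D5:**
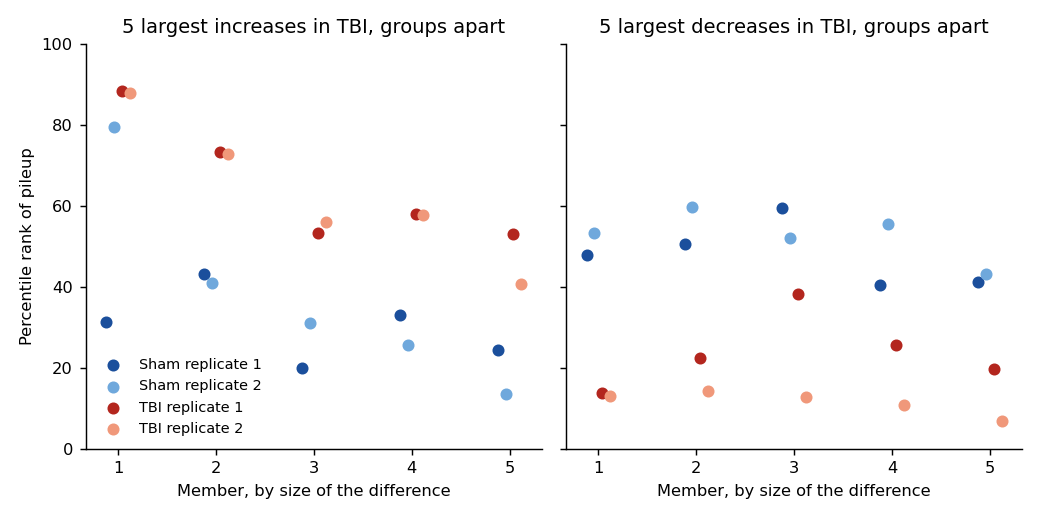
Percentile rank of pileup (vertical axis) in each list, 1 point per list, for the 5 members with the largest increase (left) and the 5 with the largest decrease (right) among those whose groups do not overlap, ordered by size of the difference. In the left panel, sham replicate 2 of the first member lies near the TBI points, at 79.5, and the second member has sham ranks of 43.2 and 41.1 against TBI ranks of 73.4 and 72.9.

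Some members with high sham ranks shifted in rank while keeping their extent. The member with the smallest length ratio, chr1:56923383-56927075, had pileups of 55.63 and 86.04 tags in sham and 30.29 and 17.16 tags in TBI. Its ranks were 97.1 and 99.96 in sham and 70.7 and 81.0 in TBI, a difference of −22.7 ± 3.73 points (SE, n = 2 each) with an adjusted p of 0.259 by limma. It was named for its length, not for this difference. The lowest adjusted p of any member, 0.0728 by limma, belonged to chr13:38709398-38710496, which is named after its values were seen. Its ranks were 92.3 and 98.2 in sham and 68.0 and 69.4 in TBI, and its lengths were 1099 and 1149 bases in sham and 1084 and 1087 bases in TBI. On log2 pileups it was lower in TBI past the threshold, with adjusted p = 0.0236 by limma after quantile normalization and 0.0331 after subtraction of medians.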

How the data were processed

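H3K4me3 peak lists of 2 sham and 2 TBI rats were used. Per the submitters' processing notes and the file headers, the authors trimmed reads, aligned them to rn5 with BWA 0.7.16a, and called broad peaks for each sample against its own input with MACS2 2.1.2 (p under 0.0001, broad cutoff 0.1, extension 200 bases, 1 tag per position, 1 genome-wide background). The pileup of a peak is a coverage signal deposited without scaling to depth, the fold enrichment is the ratio of pileup to background (each plus 1) as deposited, and −log10 p and q were used as deposited, although the headers state that q was not calculated. The background matched that computed from the tag total of each list. Fold enrichment and pileup therefore order the peaks of a list alike, and fold enrichment is not corrected for local input.

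Members and lists were chosen with earlier results of these data known. In another list, the partner of a member was the peak of the class sharing the most bases. Percentile ranks over 34356 regions were compared with limma 3.58.1 (trend, two-sided, R 4.3.3) and adjusted by Benjamini-Hochberg, with a threshold of 0.05. Named were the 5 largest rank differences in each direction among members passing or, since none passed, not overlapping between groups, the 5 highest mean ranks, the 3 largest and 3 smallest length ratios, and the peaks at the length bounds. Other positions are named as chosen after their values were seen. The fit was tested on simulated data with a smoothed spread of the sham pair, which lies below the true spread, in every list. There, ranks gave no false calls but missed many of the smaller changes, and quantile-normalized log2 values recovered every change and gave false calls. The lists give no counts per peak, so no counting interval was set. Alternatives were other scales, fold enrichment ranks, other partners, merged regions, a −log10 q of at least 10, 50% overlap, other starting lists, a replicate block, no trend, a threshold of 0.01 and leaving out each sample. The labels give each sample as separate tissue, with n = 2 per group. The 14 RNA samples and the sequences of the regions were not used here. Tables were handled in Python 3.11.15 with pandas 2.3.3 and scipy 1.17.1.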

Additional observations from a re-analysis of the deposited data

How the results depend on the processing

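The number of members was 10843 to 12322 under every alternative except a −log10 q of at least 10 in every list, which left 6944, and the length difference stayed within the spread between replicates throughout, at −256.5 to 265 bases with 1 sample left out. The median rank difference, −0.17 points, became 0.214 with merged regions, 0.638 with −log10 q of at least 10, 0.672 and 1.607 when the rule started from TBI replicates 1 and 2, −0.77 to 0.285 with 1 sample left out, and 0.123 on log2 pileups with medians subtracted. The cause was not tested. On that last scale 3358 members lay higher and 856 lower in TBI without overlap, and −log10 q of at least 10 gave 1308 higher and 1006 lower among fewer members. Merged regions gave 2144 higher and 1691 lower, so the larger count changed side under all 3, as it also did over all regions.

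Members past the threshold numbered 1 higher and 2 lower after quantile normalization of log2 pileups, against 93 and 4 of all 34356 regions. They numbered 1 and 7 after subtraction of medians, against 127 and 25 of all regions. With merged regions they numbered 1 and 1, and no other of the 34589 regions passed. With 1 sample left out, the lone sample is assumed to vary like the other group, so only rank differences are given here. The 2 lower after quantile normalization were chr13:38709398-38710496 and chr1:40145760-40146909, named after their values were seen. The merged regions were chr8:67216154-67224613, with ranks of 21.4 and 16.1 in sham and 90.5 and 92.5 in TBI (adjusted p = 0.00867 by limma), and chr8:127866656-127874487, with 92.7 and 85.9 in sham and 36.3 and 29.6 in TBI (adjusted p = 0.0169). In the first, the peaks compared had pileups of 5.22 and 5.13 tags in sham and 52.38 and 23.98 tags in TBI. Without sham replicate 2, rank differences were 56.8 points at chr19:63315707-63316754, 66.9 at chr6:109400483-109401647 and 61.8 at chr8:78013851-78015079, the last 2 named after their values were seen. The ranks of sham replicate 2 there were 79.5, 94.4 and 79.3. With the replicate number as a block, 0 members were higher and 0 lower, and 17 regions of all were higher, against 22. Deviations of same-numbered samples correlated at r = 0.142 over members and 0.0284 over all regions in 2 pairs, and the labels give only the numbers. The rank differences of the 10 members named for them reversed under 0 alternatives. For most alternatives the direction was fixed in advance. The groups of the 10 do not overlap, so leaving out 1 sample cannot reverse them. A change of trend, block or threshold leaves the difference as it was, and fold enrichment orders peaks as pileup does. With all samples kept, only chr7:121144496-121145577 of the 10 passed the threshold, on the log2 scales. These results cover only alternatives in which the member had a value. None of the 10 had one with a −log10 q of at least 10 in every list. With merged regions, chr7:121144496-121145577, chr19:63315707-63316754 and chr17:46472075-46473348 had none, and chr19:63315707-63316754 had none at 50% overlap. The shallow TBI replicate 2 limits how firmly a lower TBI value can be read.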
